A study of Mus musculus with 2 samples.

Results

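Cadherins and non-clustered protocadherins were followed in 2 polyadenylated RNA libraries of mouse frontal cortex. Members are the genes that GENCODE M21 annotates as protein-coding and whose symbols are Cdh or Pcdh followed by digits alone, which gave 34 of 21474 protein-coding genes in the files, 23 cadherins and 11 protocadherins. Both libraries are biological replicates of 1 group, adult C57BL/6J mice aged 8 weeks, with tissue labelled as pooled from males and females among littermates. The RNA was depleted of ribosomal RNA, selected above 200 nt and sequenced as stranded read pairs. Expected counts, the authors' estimate of fragments per gene, summed to 106084891 in replicate 1 and 90476207 in replicate 2. With 1 group there is no comparison between conditions, so each member's level and its ratio between the replicates are described, and no p-value was computed.

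Cadherins are calcium-dependent adhesion proteins whose outer repeats bind cadherins on the facing membrane. In classical type I and type II cadherins a tryptophan at the start of the mature outer part docks into the partner molecule, and the cytoplasmic tail holds beta-catenin and p120-type catenins, which tie the junction to actin. In brain these proteins sit at synapses, at growing axons and in vessel walls, and different neuron classes carry different type II cadherins. The delta protocadherins lack the catenin-binding tail; the delta-1 kind carries a motif that binds protein phosphatase 1, and several of the delta-2 kind recruit the WAVE complex, which starts branched actin growth.

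The coding bases of the docking segment are shown to describe the subfamilies. Genes were placed in subfamilies by name beforehand, from known classes, so the split below is no test of these classes. The search asked for a tryptophan codon at position 2, so each hit has it by construction. A cleavage motif (arginine, any residue, lysine or arginine, arginine) followed by a tryptophan codon at position 2 of the next 12 codons was found in all 5 type I genes, all 13 type II genes, Cdh26 and no protocadherin. All 13 type II genes also had a tryptophan codon at position 4, and none of the 5 type I genes did. The sequences below run 5′ to 3′ along the coding strand from the first codon after the motif, with tryptophan codons in capitals. They were cut from GENCODE M21 transcripts and placed on mm10. The first 5 are the type II genes that follow each other on chromosome 15, the next 3 are those on chromosome 1, Cdh22 and Cdh24 are a further type II pair, and Cdh4 (type I) and Cdh26 show the form with 1 tryptophan codon.
Cdh6 (chr15:13091683-13091718, minus strand): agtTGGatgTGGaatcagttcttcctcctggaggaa
Cdh9 (chr15:16778257-16778292, plus strand): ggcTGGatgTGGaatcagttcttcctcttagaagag
Cdh10 (chr15:18899751-18899786, plus strand): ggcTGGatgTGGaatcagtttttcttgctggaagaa
Cdh12 (chr15:21237843-21237878, plus strand): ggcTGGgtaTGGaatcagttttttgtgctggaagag
Cdh18 (chr15:23173861-23173896, plus strand): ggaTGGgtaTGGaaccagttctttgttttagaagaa
Cdh20 (chr1:104934274-104934309, plus strand): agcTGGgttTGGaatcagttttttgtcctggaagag
Cdh7 (chr1:109994321-109994356, plus strand): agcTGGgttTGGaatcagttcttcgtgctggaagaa
Cdh19 (chr1:110954596-110954631, minus strand): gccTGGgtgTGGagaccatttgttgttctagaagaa
Cdh22 (chr2:165180937-165180972, minus strand): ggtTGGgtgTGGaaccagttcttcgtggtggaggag
Cdh24 (chr14:54639377-54639412, minus strand): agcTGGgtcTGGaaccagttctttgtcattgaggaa
Cdh4 (chr2:179797560-179797595, plus strand): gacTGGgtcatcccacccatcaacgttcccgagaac
Cdh26 (chr2:178441429-178441464, plus strand): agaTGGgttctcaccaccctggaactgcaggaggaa

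Cdh12 and Cdh20 had 33 of 36 bases in common although they lie on different chromosomes. Cdh10 had 31 bases in common with Cdh12, 30 with Cdh9 and 14 with Cdh4. Cdh10 and Cdh12, close in these bases, stood at opposite ends of the type II range of levels.

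The libraries differed in ways the labels do not give. The X-inactivation RNA Xist had 107 counts in replicate 1 and 77696 in replicate 2, whereas the Y-linked genes Eif2s3y and Ddx3y had 7150 and 4584 counts in replicate 1 and 3 and 1 in replicate 2, which goes against the label of pooled sexes for both. All 4 markers of cortical excitatory neurons were detected, with a summed 1182 TPM in replicate 1 and 1138 TPM in replicate 2 (TPM, a transcript share that allows for length). Markers of olfactory bulb were present as well, with Doc2g at 149 and 161 TPM in replicates 1 and 2. Because each level is a share of all entries, rescaling to nuclear protein-coding genes multiplied every level by 1.98 in replicate 1 and 2.08 in replicate 2. In bulk tissue, fewer cells of a type and less RNA per cell cannot be told apart.

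Of the 34 members, 27 reached 1 TPM in both libraries (79.4%), against 60.7% of the 21474 protein-coding genes. The median member stood at 6.03 TPM and the median protein-coding gene at 4.1 TPM. Detection went by subfamily. Among the members, all 13 type II cadherins, all 3 delta-1 and all 5 delta-2 protocadherins were detected, whereas 2 of 5 type I cadherins, 2 of 5 other cadherins and 2 of 3 other protocadherins were. The symbol rule leaves out the protocadherin Pcdh11x, so these counts and sums need not cover a whole subfamily. The 13 type II genes together made up 111 TPM in replicate 1 and 99.0 TPM in replicate 2. The 5 delta-2 genes summed to 76.3 and 77.8 TPM, the 3 delta-1 genes to 71.7 and 66.7 TPM and the 5 type I genes to 49.2 and 42.6 TPM in replicates 1 and 2. The 11 protocadherins summed to 164 ± 3.8 TPM (SD, n = 2) and the 23 cadherins to 175 ± 15.6 TPM. Over transcripts of 1000 nt or more, protocadherins came to 150 and 138 TPM and cadherins to 183 and 160 TPM in replicates 1 and 2, and the delta-2 genes (65.2 and 57.8 TPM) stood below the delta-1 genes (67.5 and 63.8 TPM) in both libraries. In the same files, 51 of 57 clustered protocadherins and 0 of 9 desmosomal cadherins reached 1 TPM in both libraries. The authors' posterior SD of counts, a score of assignment uncertainty, was 0 for 18 of the 57 clustered genes. It was 0 for 32 of the 34 members, so the clustered levels rest on less certain assignment.

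**Figure D1:**
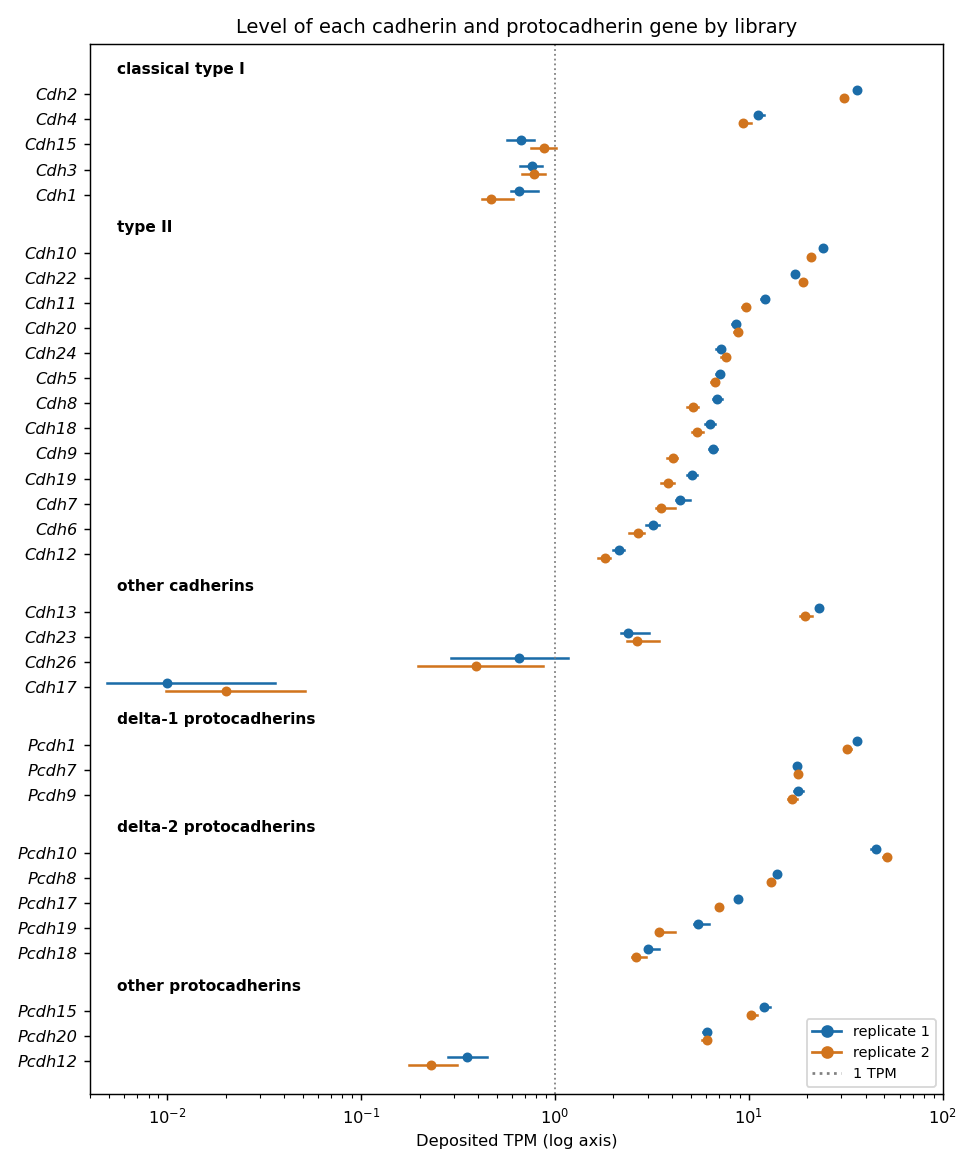
Deposited TPM (log axis) of 33 members by subfamily, replicate 1 above replicate 2, with horizontal bars for the authors' TPM bounds and a dotted line at 1 TPM. All 13 type II genes lie to the right of the line, while Cdh15, Cdh3 and Cdh1 lie to its left, and Cdh16, listed at 0 in both libraries, is not drawn.

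Among type I cadherins, Cdh2 (N-cadherin, the classical cadherin of neurons, astrocytes and many synapses) led with 36.04 TPM in the first replicate and 31.06 TPM in the second (33.5 ± 3.52 TPM). Cdh4, R-cadherin, which can bind N-cadherin across the junction, followed at 11.1 and 9.36 TPM. The log2 difference of Cdh2 over Cdh4 was 1.70 in replicate 1 and 1.73 in replicate 2, so it hardly moved between libraries. The epithelial Cdh1 (E-cadherin) had 0.65 and 0.47 TPM, Cdh3 (P-cadherin) 0.76 and 0.78 TPM and Cdh15 (M-cadherin, of skeletal muscle) 0.67 and 0.88 TPM in replicates 1 and 2. Cdh2 over Cdh1 was 5.92 ± 0.18 on the log2 scale. Gm20388, a gene annotated across Cdh15 and its surroundings on the same strand, took 3566 counts in replicate 1 and 2228 in replicate 2, and Cdh15 itself had 147 and 174, with an authors' posterior SD of 0 in both.

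Type II cadherins were spread over more than an order of magnitude. Cdh10 (ENSMUSG00000022321.11, chromosome 15, 18818947 to 19014236, mm10) was highest, with 24.2 and 20.9 TPM in replicates 1 and 2, and Cdh22, expressed mainly in brain and pituitary, was next at 17.3 and 19.1 TPM. Cdh22 was the only one of this pair with the higher TPM in replicate 2. Cdh11, known from osteoblasts and mesenchyme and also present in brain, had 12.1 and 9.63 TPM, and Cdh20 8.60 and 8.75 TPM. Cdh24 (7.14 and 7.60 TPM), Cdh5 (7.12 and 6.70 TPM), Cdh8 (6.86 and 5.12 TPM) and Cdh18 (6.32 and 5.38 TPM) formed a middle range. Within that range the TPM of Cdh8 differed most between the libraries. Cdh9, which in mouse hippocampus acts at synapses of dentate granule cells on CA3 neurons, had 6.56 and 4.05 TPM, and Cdh19, a gene of Schwann cells and other glia, 5.09 and 3.82 TPM. The lowest were Cdh7 (4.40 and 3.52 TPM), Cdh6 (3.22 and 2.68 TPM) and Cdh12 (2.15 and 1.80 TPM in replicates 1 and 2).

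Neighbouring type II genes stood at different levels. Cdh6, Cdh9, Cdh10, Cdh12 and Cdh18 lie in this order on chromosome 15 with 0 annotated protein-coding genes between them and gaps of 3555, 1962, 1435 and 959 kb. Their mean levels along the chromosome were 2.95, 5.3, 22.5, 1.98 and 5.85 TPM, so the highest and the lowest type II genes adjoin each other. Cdh10 over Cdh12 was 3.49 in replicate 1 and 3.54 in replicate 2 on the log2 scale, and Cdh10 over Cdh9 was 1.88 and 2.37. On chromosome 1, Cdh7 and Cdh19 also have 0 protein-coding genes between them and lay at 3.96 and 4.46 TPM. Members had long gene spans, with a median of 115 kb against 17.7 kb for protein-coding genes, and 18 of 34 spanned 100 kb or more, against 11.5% of protein-coding genes. The shortest spans were those of Pcdh8 (4.54 kb), Pcdh20 (6.65 kb) and Cdh24 (10.1 kb).

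Among the remaining cadherins, Cdh13 (T-cadherin, held in the membrane by a lipid anchor with no cytoplasmic tail, and an adiponectin receptor) had 23.1 TPM in replicate 1 and 19.6 TPM in replicate 2. Cdh23, a partner of Pcdh15 in the tip links of inner ear hair cells, had 2.39 and 2.64 TPM. Pcdh15 had 12.01 and 10.26 TPM, and Cdh23 over Pcdh15 was -2.14 ± 0.26 on the log2 scale, so the tip-link partners were far from equal in this tissue. Cdh26 had 0.65 and 0.39 TPM from 36 and 44 counts in replicates 1 and 2, so TPM and counts went opposite ways. A non-coding transcript of 374 nt took 79.9% of its TPM in replicate 1 and 46.8% in replicate 2. The coding transcripts of Cdh26 had 0.13 TPM in replicate 1 and 0.21 TPM in replicate 2, higher in replicate 2 like the counts. Cdh17, the cadherin of liver and intestine, had 3 counts in replicate 1 and 5 in replicate 2. Cdh16, the kidney cadherin, had 0 counts in both, which at 3 counts per library allows up to 0.0295 CPM in replicate 1 and 0.0345 CPM in replicate 2 (CPM, counts scaled to the total over annotated genes, 101771568 and 86854776).

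Among delta-1 protocadherins, Pcdh1 had 36.03 TPM in replicate 1, and in replicate 2 it had 31.92 TPM. Pcdh7, whose tail binds the histone chaperone and phosphatase inhibitor Set, had 17.70 and 18.01 TPM, and Pcdh9 had 17.9 and 16.8 TPM. Pcdh1 was above both in each library, by 1.03 and 0.83 on the log2 scale over Pcdh7, while Pcdh9 over Pcdh7 changed sign between the libraries (0.02 in replicate 1 and -0.10 in replicate 2). It was the 1 of 20 chosen pairs that did not differ beyond the spread, meaning the same sign in both libraries, a mean above the SD and the authors' TPM bounds apart in each library. No share over other pairs of genes was computed, so this count shows nothing particular to the members.

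Among delta-2 protocadherins, Pcdh10 (OL-protocadherin; ENSMUSG00000049100.11, chromosome 3, 45378398 to 45435623, mm10) was the highest member of all as deposited, with 45.2 TPM in replicate 1 and 51.8 TPM in replicate 2, above 89.5% of protein-coding genes by its mean. Pcdh8, whose rat form arcadlin is induced by neuronal activity, had 13.9 and 13.0 TPM. The log2 ratio of Pcdh8 between the libraries was -0.04 with a counting interval of -0.10 to 0.02. The activity-induced genes Fos (19.7 and 52.2 TPM) and Arc (46.3 and 107 TPM in replicates 1 and 2) were lower in replicate 1. Any link of Pcdh8 to activity in these libraries was not tested. Pcdh17 had 8.79 and 6.99 TPM, Pcdh19 5.44 and 3.44 TPM, and Pcdh18, which binds the Reelin adaptor Dab1, 3.0 and 2.62 TPM. Pcdh10 over Pcdh8 was 1.85 ± 0.21 and Pcdh17 over Pcdh19 0.86 ± 0.23 on the log2 scale. Of the other protocadherins, Pcdh20 had 6.09 and 6.06 TPM. Pcdh12, an endothelial protocadherin, had 0.35 and 0.23 TPM, far below the endothelial Cdh5 (VE-cadherin). Cdh5 over Pcdh12 was 4.61 ± 0.37 on the log2 scale. Transcripts not annotated as protein-coding took 91% and 58% of Pcdh12 TPM in replicates 1 and 2. Its longest coding form had 0.03 and 0.10 TPM.

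Ordered by mean TPM, 8 of 32 neighbouring pairs of the 33 members above 0 differed beyond the spread. The breaks lay between Pcdh10 and Pcdh1, Cdh2 and Cdh10, Pcdh9 and Pcdh8, Pcdh8 and Pcdh15, Cdh5 and Pcdh20, Cdh7 and Cdh6, Cdh12 and Cdh15, and Pcdh12 and Cdh17. Between these breaks adjacent members could not be ordered. Pcdh1 and Cdh2 were within 0.02 ± 0.03 of each other on the log2 scale, and Cdh10 and Cdh13 within 0.08 ± 0.02 with overlapping bounds.

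The lead of Pcdh10 over Cdh2 rested on a single short transcript. ENSMUST00000195655.1, a processed transcript of 634 nt with no annotated coding frame, took 388 of the gene's counts in replicate 1 (1.91%) and 627 in replicate 2 (3.63%), yet 24.3% and 38.6% of its TPM. Over transcripts of 1000 nt or more Pcdh10 had 34.2 TPM in replicate 1 and 31.8 TPM in replicate 2, rank 3 behind Pcdh1 (35.8 and 31.9 TPM) and Cdh2 (36 and 31.1 TPM), and these ranges overlapped. Its log2 TPM ratio of replicate 1 over replicate 2 turned from -0.20 to 0.11, and Pcdh10 over Pcdh8 became 1.29. Of the 27 detected members, Cdh13, Pcdh9 and Cdh23 also had 10% or more of TPM on transcripts under 1000 nt in either library. Below 1 TPM, Cdh26 had 79.9% of its TPM on such a transcript in replicate 1 and 46.8% in replicate 2.

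**Figure D2:**
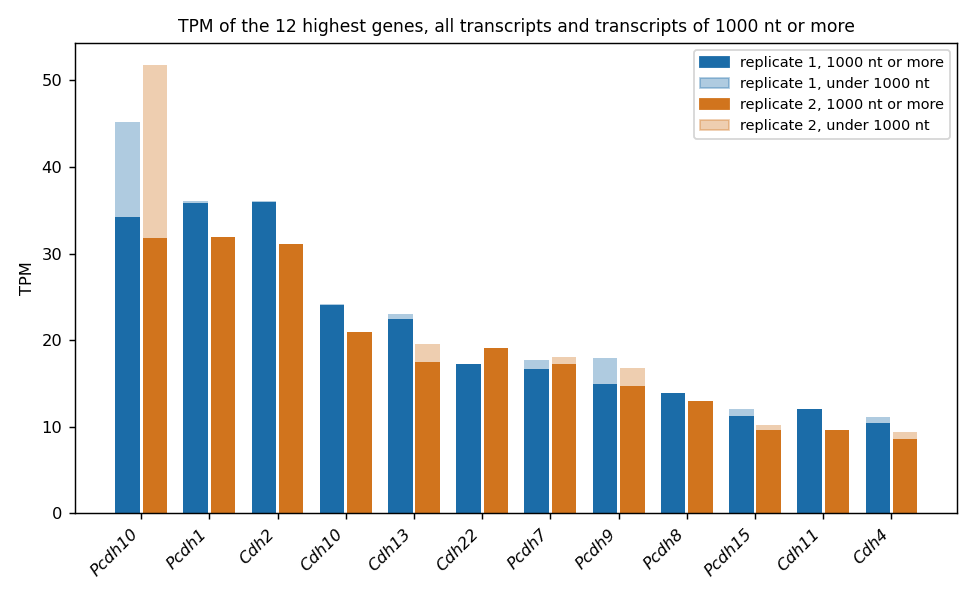
TPM of the 12 highest members, replicate 1 left of replicate 2, with transcripts of 1000 nt or more in full colour and shorter ones in pale colour on top. The pale part is largest for Pcdh10, and without it Pcdh10 stands at 34.2 and 31.8 TPM, level with Pcdh1 and Cdh2.

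Of the 27 detected members, 19 had at least 2 transcripts in the files and 8 had 1. The same transcript led in both libraries in 17 of the 19, with Pcdh10 and Cdh23 the exceptions. TPM was then summed over transcripts whose annotated coding length is 80% or more of the gene's longest. In 21 of 27 members these took 80% or more of TPM. The other 6 were Pcdh10, Pcdh1 and Pcdh15 (68.5 ± 10.1%, 60.3 ± 1.64% and 51.1 ± 0.431%) and Pcdh19, Cdh7 and Cdh23 (49.4 ± 1.53%, 44.3 ± 2.38% and 20.8 ± 2.73%).

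These members differed in what made up the rest. In Pcdh1 a transcript of 5416 nt with a coding length of 1080 nt, against 3231 nt in the leading one, took 37.8% of TPM in replicate 1 and 40.9% in replicate 2. In Pcdh19 the leading transcript, with 46.9% and 51.6%, has a coding length of 1923 nt, and the longest form, of 3435 nt, took 25.3% and 24.7%. In Cdh7 the leading transcript, 4776 nt long, has a coding length of 228 nt and took 26.6% and 27.7%. In Cdh23, transcripts not annotated as protein-coding took 77.3% of TPM in replicate 1 and 81.1% in replicate 2. Its transcripts with a near-complete coding length came to 0.55 and 0.49 TPM. Counts were shared out otherwise. A transcript of 438 nt took 1.28% and 2.04% of the gene's counts but 23.4% and 31.5% of its TPM. A coding one of 10592 nt took 228 of 838 and 213 of 679 counts but 11.1% and 10.4% of TPM. The TPM bounds of that coding one were wide, 0.000563 to 0.266 in replicate 1. In Pcdh15, with 41 transcripts, non-coding ones took 43.7% and 42.1%. Other members had several long coding forms. Cdh2 had its coding length of 2547 nt on 59.6% and 58.5% of TPM and that of 2718 nt on 38.5% and 39.2%, and Pcdh8 had coding lengths of 3210 nt on 65.9% and 60.1% and 2919 nt on 29.9% and 32.9%. Cdh8 had 3 transcripts with 10% or more of its TPM, and 34.3% and 32.0% on the leading one. Shares among transcripts that overlap are estimates, and gene TPM rests on them, as Pcdh10 shows. The authors' posterior SD of the gene count was 0 in both libraries for 32 of 34 members, and for 88.9% of protein-coding genes at 1 TPM or more.

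**Figure D3:**
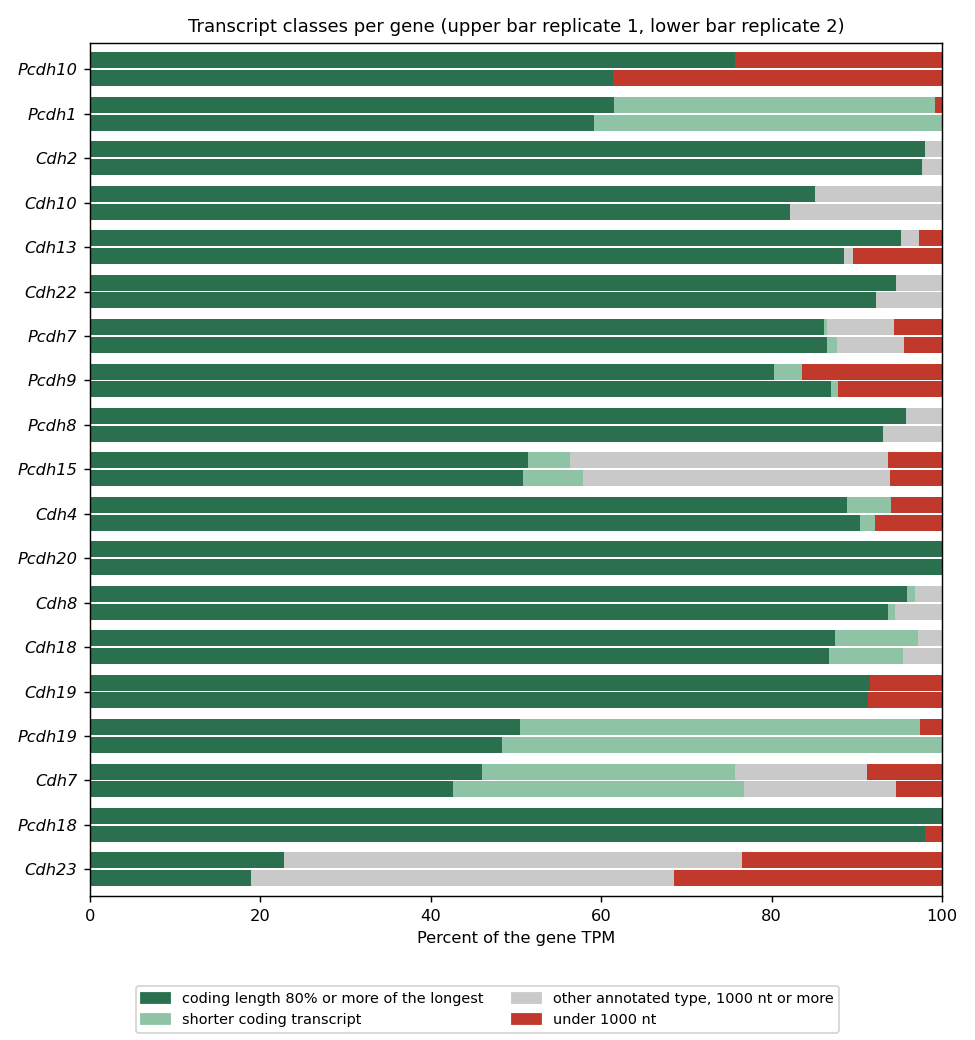
Percent of gene TPM by transcript class for the 19 detected members with at least 2 transcripts, in order of mean TPM, upper bar replicate 1 and lower bar replicate 2. Dark green marks coding lengths of 80% or more of the gene's longest; Cdh23 has the smallest dark part (22.7% and 18.9%), and the bars of Pcdh10 differ between the libraries (75.7% and 61.4%).

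The libraries were then compared gene by gene. None of the 27 at a mean of 1 TPM or more passed 1.5-fold (log2 of replicate 1 over replicate 2 of TMM-scaled CPM), against 0.936% of 13247 protein-coding genes higher and 1.21% lower in replicate 1. At those shares under 1 gene in 27 would pass on either side, so the count of 0 sets the members apart in no way. The median log2 ratio of members was 0.09, with 18 of 27 higher in replicate 1 (66.7%), against -0.00 and 49.8% over all 13247 genes. Cadherins had 13 of 17 above 0 and protocadherins 5 of 10. Counting intervals lay above 0 for 12 members, below 0 for 7 and across 0 for 8, and over the 13247 protein-coding genes 27.2% lay above 0 and 29% below. An interval off 0 was thus usual; it narrows with the count and covers counting error alone, not the spread between animals.

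Among the 27 members at a mean of 1 TPM or more, Cdh9 and Pcdh19 had the ratios farthest from 0. Cdh9 had 1635 counts in replicate 1 and 912 in replicate 2, a log2 ratio of 0.56 (counting interval 0.44 to 0.68), and 1.04% of protein-coding genes had a ratio as high. Pcdh19 (chromosome X, 133582860 to 133688987, mm10), the X-linked gene whose human form is mutated in an epilepsy of heterozygous females, had 3521 and 2050 counts and a ratio of 0.50 (0.42 to 0.58). The median of 438 X-linked protein-coding genes was 0.05, and 9 of them had a ratio at or above that of Pcdh19. By deposited TPM, where the median protein-coding gene is itself at 0.13, Cdh9 and Pcdh19 passed 1.5-fold, with log2 ratios of 0.70 and 0.66, and with library size alone Cdh9 did. Cdh8 followed at 0.35 (0.25 to 0.45) and Cdh19 at 0.28. Of the same 27, those farthest on the other side were Cdh22 at -0.27 (-0.32 to -0.21), Cdh24 at -0.22, and Pcdh7 and Cdh20 at -0.16 each. Below 1 TPM, Cdh15 had a ratio of -0.52 (-0.85 to -0.20) from 147 and 174 counts, and Cdh26, Cdh17 and Cdh3 had negative ratios with intervals across 0. With 1 library on each side, none of these differences can be set against a replicate spread. Xist and the Y-linked genes differed between the same libraries, so sex and library cannot be told apart in these ratios.

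**Figure D4:**
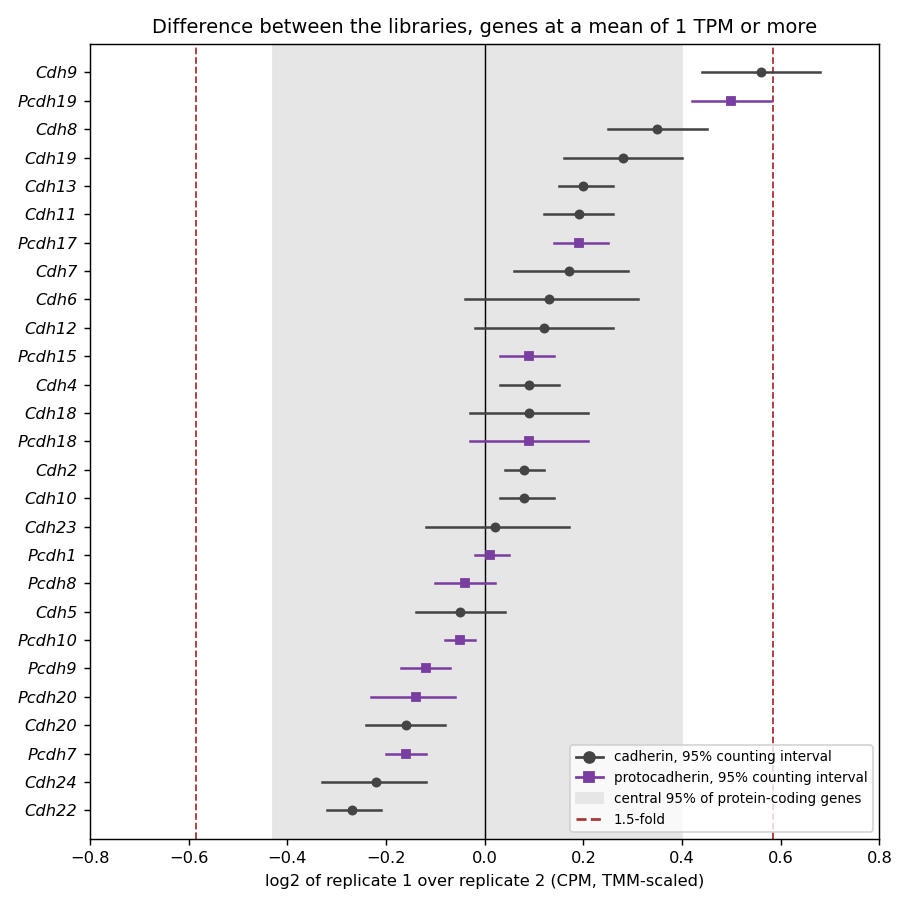
Log2 ratio of replicate 1 over replicate 2 for the 27 detected members with counting intervals at 95%, circles for cadherins and squares for protocadherins. The grey band holds the central 95% of protein-coding genes (-0.43 to 0.40) and the dashed lines mark 1.5-fold; Cdh9 at 0.56 and Pcdh19 at 0.50 lie right of the band and inside the line.

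Some lists of cell type markers differed between the libraries as well. All 4 microglia markers were higher in replicate 1, with a summed 127 TPM in replicate 1 and 88.6 TPM in replicate 2 and a median log2 ratio of 0.41. Mural cells behaved likewise (175 and 137 TPM, median 0.48, 4 of 4 higher), as did 4 of 5 meningeal fibroblast markers (73.5 and 54.1 TPM for the list, median 0.40). The exception was Col1a1 at -0.40. Oligodendrocyte markers were lower in replicate 1 (1694 and 2087 TPM, median -0.43, 4 of 4), and so were striatal ones (59.4 and 86.2 TPM, median -0.68, 3 of 3). No marker of these 5 lists was at 0. Their part in the ratios of Cdh9, Pcdh19 and Cdh8 was not tested. Medians were smaller for excitatory neurons (-0.06), astrocytes (-0.07) and olfactory bulb (-0.09). Interneuron markers had a median of -0.17, with Pvalb alone past 1.5-fold (-0.84). The median was 0.23 for oligodendrocyte precursors. For ependyma and choroid plexus it was -0.67 over 2 of 3 markers, Rarres2 (-0.97) and Foxj1 (-0.36). The third, Ttr (-0.00), was left out at a mean of 0.89 TPM. For Cdh5 the endothelial list is at hand: its 5 markers summed to 177 and 202 TPM with a median of 0.04, the 4 other than Ly6c1 to 86.9 and 77.6 TPM, and Cdh5 itself had a ratio of -0.05.

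Genes that act with cadherins and protocadherins were read in 6 lists, and none of their genes at a mean of 1 TPM or more passed 1.5-fold between the libraries. Of 13 catenins, 9 reached 1 TPM in both libraries, led by Ctnnb1 (beta-catenin) at 99.2 ± 0.417 TPM, Pkp4 at 73.1 ± 0.58 TPM and the neuronal Ctnnd2 (delta-catenin) at 50.1 ± 2.56 TPM. All 14 junction partners were detected, led by the actin crosslinker Actn4 (84.6 ± 4.02 TPM), the nectin-binding Afdn (44.8 ± 2.8 TPM) and Actn1 (32.8 ± 5.46 TPM). All 7 genes of cadherin cleavage were detected, with Adam15 at 77 ± 0.58 TPM, the gamma-secretase subunit Ncstn at 43.2 ± 3.44 TPM and Adam10, which sheds N-cadherin, at 20.4 ± 2.55 TPM.

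All 9 WAVE complex genes were detected, with Brk1 at 202 ± 13.2 TPM, Nckap1 at 115 ± 9.91 TPM and Cyfip2 at 110 ± 7.89 TPM. The other partners of protocadherins were detected too (5 of 5), led by the phosphatase subunit Ppp1ca at 166 ± 8.49 TPM, the kinase Ptk2b at 153 ± 8.73 TPM and Set at 114 ± 1.64 TPM. Of 28 other genes of the cadherin superfamily 12 were detected. The calsyntenins Clstn1 and Clstn3, synaptic proteins with cadherin repeats, stood at 164 ± 4.1 and 103 ± 4.82 TPM, above every member, and Cdhr1, known from photoreceptors and olfactory bulb output neurons, at 59.5 ± 7.31 TPM.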

How the data were processed

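For each library the authors gave 1 table by gene and 1 by transcript, built on mm10 and annotation M4 according to their deposited text file. No aligner or counter is given in the sources used here. The authors deposited expected counts (estimated fragments), TPM and FPKM over all entries, posterior SDs of counts (a score of assignment uncertainty) and the percent of a gene's TPM on each transcript. The deposited TPM bounds (signal values) were read as 95% intervals, a level the files do not state.

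Symbols, biotypes and coordinates came from GENCODE M21 by identifier without version; 42462 of 43346 annotated genes matched. Coding lengths are those of M21. Members are all named. Partner lists are named by their 3 most abundant genes, and Pcdh11x is named as a protocadherin outside the symbol rule. Members and lists were chosen with earlier results of these data known, and the other genes named were chosen after their values were seen.

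Replicate ratios used rounded expected counts, a prior count of 2 and TMM factors (edgeR 4.0.16, R 4.3.3), with exact conditional binomial intervals; the code was tested on simulated data. DESeq2 1.42.0 size factors were an alternative. These intervals are meant for counting error alone. PCR copies were not marked, so they can be too narrow even for that. SDs have 1 degree of freedom. The libraries are stranded; whether counting used strand is not stated. The labels call the samples biological replicates.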

Additional observations from a re-analysis of the deposited data

How the results depend on the processing

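No paired analysis was possible because the series holds 1 group. The 27 detected members became 29 at 0.5 TPM, 26 at 2 TPM and 29 after rescaling to nuclear protein-coding genes, and remained 27 in number in each single library. No member was past 1.5-fold as reported; 1 was higher in replicate 1 with library size alone, 2 by deposited TPM and 3 at a lower fold limit (0.32 on the log2 scale), against 1.2%, 2.34% and 4% of protein-coding genes, and 0 were lower in replicate 1 under these 3 alternatives, against 0.996%, 0.974% and 4.88%. By TPM the median ratio was 0.21 in members and 0.13 in protein-coding genes, against 0.09 and -0.00 by TMM-scaled CPM. Both sets moved up by TPM, and the median of members stood above that of protein-coding genes by either measure. By TMM-scaled CPM this held for cadherins (median 0.09) and not for protocadherins (-0.01). Pairs beyond the spread numbered 19 to 20 of 20, and Pcdh9 over Pcdh7 (-0.04) ranged between -0.10 without replicate 1 and 0.02 without replicate 2. The limit to transcripts of 1000 nt or more and the endothelial sum without Ly6c1 were chosen after seeing the data. With 2 libraries every SD is itself uncertain.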

Other observations

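Of 40 genes annotated over 20 members, 4 reached 1 TPM in both libraries. Vsir, an immune checkpoint gene on the opposite strand inside Cdh23, had 17.11 TPM in replicate 1 and 11.97 TPM in replicate 2, above Cdh23 itself (2.39 and 2.64 TPM). The antisense 4932441J04Rik at the start of Pcdh7 had 2.61 and 2.72 TPM. Libraries are stranded, so these are counted apart from their host genes where the counting used strand, which the sources used here do not state.

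Pcdh8, Pcdh17, Pcdh20 and Pcdh9 lie in this order on chromosome 14, with 1, 2 and 0 annotated protein-coding genes between neighbours, at mean levels of 13.5, 7.89, 6.07 and 17.3 TPM.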
